A study of Homo sapiens with 6 samples.

Results

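The genes described here encode proteins of the centriole and the centrosome. They were chosen by name: every gene whose symbol is CEP followed by a number, with letters allowed after it, and 17 further genes, namely ODF2, ODF2L, CCDC14, CCDC15, PLK4, CENPJ, SASS6, STIL, PCNT, PCM1, OFD1, CNTRL, NIN, NINL, AKAP9, CDK5RAP2 and SPICE1. Of 17687 genes on the arrays, 52 met the rule, 35 of them CEP genes and 17 from the named set. CENPJ is listed on the platform under its current symbol CPAP and was matched by its gene identifier. CEP57L1, whose symbol ends in a digit, fell outside the rule. Each of the 52 genes had 1 probe set.

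The arrays compared Jurkat cells, a long-established human line of T-ALL, a leukaemia of immature T cells, in 2 states. The 3 suspension arrays came from cells of the control condition, and the 3 arrays called 3D here came from cells that spent 3 h inside a polymerised gel of bovine type I collagen (1.7 mg/mL). Both groups are the same unmodified line in RPMI with serum, and the labels name the gel as the difference, with the 1 h of polymerisation and the neutralising bicarbonate and Hepes that it brings. The labels call the arrays of a group biological replicates and do not say what separated them, so p-values measure the spread between these samples, which may be technical. In RNA pooled from many cells, more cells at a stage that uses a gene and more RNA per cell cannot be told apart. Levels are deposited log2 values and a difference is 3D minus suspension on that scale. They rank arrays within a gene, not genes against each other.

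The centrosome is the main site from which animal cells grow microtubules. It holds a pair of centrioles, barrels of microtubules that are copied once per cell cycle: PLK4, a kinase, recruits STIL and SASS6 to build a cartwheel beside each old barrel, and CENPJ and its partners lengthen the new one. Around the centrioles lies the pericentriolar material, held by PCNT and CDK5RAP2, which anchors the gamma-tubulin rings that start microtubules. Small granules built on PCM1, the centriolar satellites, ferry proteins to it. Older centrioles carry appendages, which anchor microtubules and, in many cell types, dock the centriole at the membrane to grow a cilium. T cells are known for moving the centrosome to the contact with a target cell without growing a cilium, and leukocytes carry it behind the nucleus when they crawl through a matrix.

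Array medians lay between 5.55 and 5.64 over all probe sets, and with 3 arrays a group the precision is limited by their number. The median level of 10 T cell markers ran from 9.35 to 9.46 over the suspension arrays and from 9.20 to 9.40 over the 3D arrays. That of 7 myeloid markers ran from 3.75 to 4.17 and from 3.74 to 4.15. Probe sets of different genes are not on a common scale, so these levels show how alike the arrays are and do not check what the cells are. Suspension replicate 1 stood apart: it was the lowest of the 6 arrays for 32 of the 52 genes, against 19.7% of all genes. 3D replicate 3 was the highest for 25 of the 52, against 18.9% of all genes. For the 52 genes and their role groups, medians are given below with and without suspension replicate 1. So are those of the 52 with a difference over 0.1 that moved by over 1.5 times without it. For lists of other genes, medians without that array were not computed.

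After 3 h in collagen, most of these genes had higher values than in suspension, by 1.32-fold at the median, and none passed the test across all genes. The mean was higher in 3D for 46 of the 52 genes (88.5%), where 47.4% of all genes were higher, and lower for 6. The median log2 difference was 0.40 over the 52 genes and -0.02 over all genes. ODF2L, CNTRL, CCDC15, CENPJ, OFD1, CEP95, CEP44 and CEP295 had the largest differences, from 0.69 to 1.11. The largest in the other direction was that of CEP170B, at -0.29 ± 0.17 (SE).

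In limma's moderated test, with Benjamini-Hochberg adjustment over all 17687 genes, 0 of the 52 passed an adjusted p of 0.05, as did 0% of all genes. The smallest adjusted p among the 52 was 0.293. At an unadjusted p under 0.05 there were 18 of the 52 higher and 0 lower, against 5.9% of all genes higher and 3.97% lower. The 3 values in 3D all lay above the 3 in suspension for 21 of the 52 and below for 0, where 8.28% and 8.03% of all genes did so. In each of the 3 same-numbered pairs 35 were higher in 3D and 2 were lower, against 20.3% and 19.8% of all genes. The genes vary together across arrays, so they do not count as separate observations.

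With the replicate number as a block in the fit, 1 of the 52 genes passed, ODF2L (limma, adjusted p 0.0394), where 0.0905% of all genes passed as higher. CCDC15 was next, at 0.0507. Restricted to genes with a mean of at least 6 over all arrays, which 44 of the 52 met, the blocked fit called 23 higher and 0 lower, where 10.6% of the 8342 genes were higher and 3.78% lower. A mean over both groups lets a gene in through the group where it is high, so this count is a description of 44 genes. Without pair 1, 2 or 3 it was 11, 27 and 14, where 3.97%, 11.1% and 4.42% of those genes were higher. Of the 44, 10 genes passed in all 4 fits: ODF2L, CCDC14, CCDC15, CENPJ, CEP128, CEP135, CEP295, CEP44, CEP95 and OFD1. Of these genes, CCDC15 and CENPJ had suspension means of 5.67 and 5.98, so they met the cutoff through their 3D values. The fits without a pair had 1 residual degree of freedom. Prior degrees of freedom were infinite without pair 2 or 3, so a gene's own spread played no part there. The 4 fits share arrays, and the share of the 8342 genes that passed all 4 was not computed. Without the block the same 8342 genes gave 0. These calls rest on the pairing by replicate number and on a spread shared between genes.

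**Figure D1:**
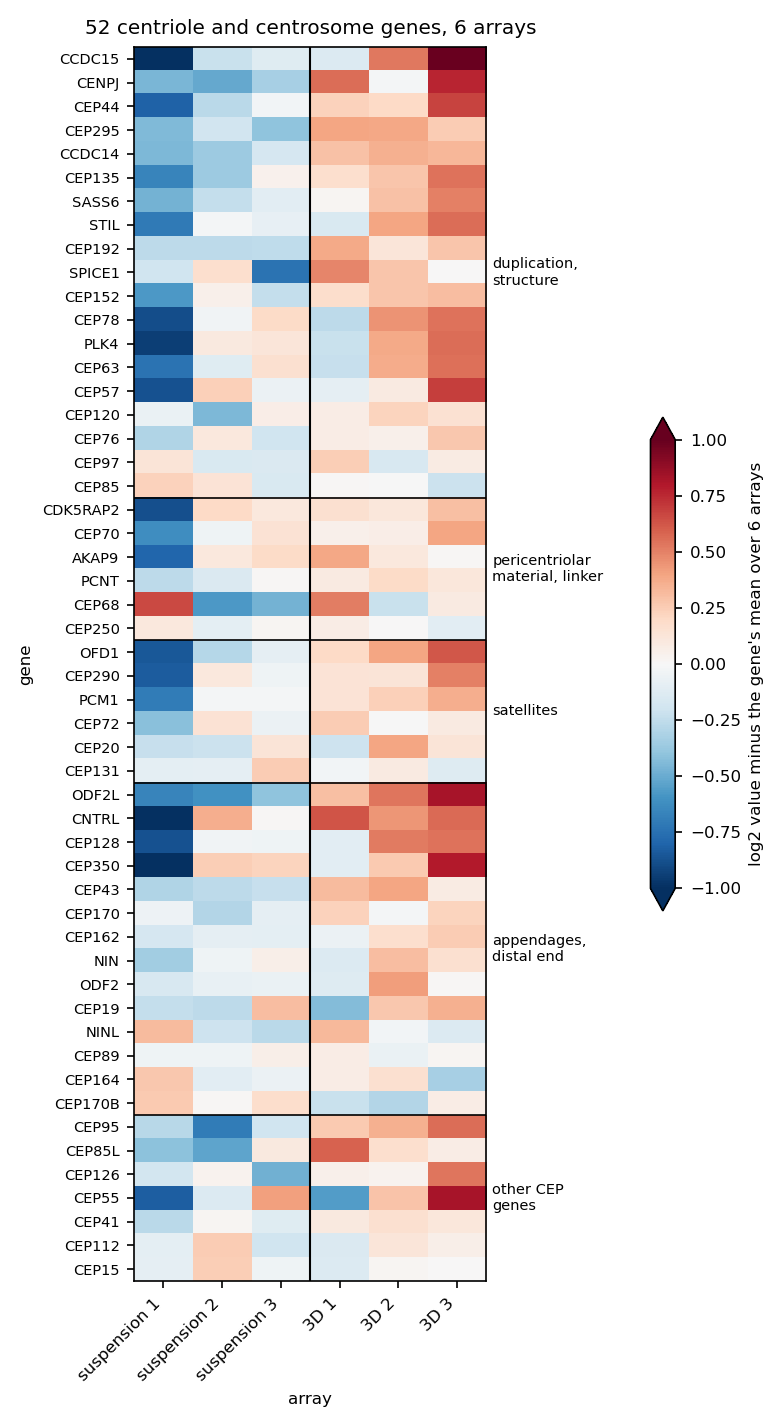
Each row is 1 of the 52 genes, grouped by role and ordered by difference, and each column is 1 array; colour is the log2 value minus the gene's mean over the 6 arrays, from -1 (blue) to 1 (red). The suspension columns left of the line are mostly blue and the 3D columns mostly red, and suspension replicate 1 is the lowest array for 32 of the 52 genes.

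Genes for building a new centriole had the highest median difference of the 5 role groups. The kinase at the head of the pathway had a smaller difference without suspension replicate 1, but was higher in each pair. Of 19 genes of duplication and centriole structure, 18 were higher in 3D and 1 lower, with a median log2 difference of 0.51 and 10 at an unadjusted p under 0.05, where 5.9% of all genes were higher. Without suspension replicate 1 the median of the 19 was 0.35. None passed over all genes (limma adjusted p 0.347 to 0.850), and 14 of the 18 with a mean of at least 6 did so in the blocked fit of such genes, where 10.6% of all such genes did.

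PLK4, the kinase that starts duplication, measured 7.31, 8.35 and 8.37 in suspension and 8.03, 8.63 and 8.81 in 3D (replicates 1, 2 and 3 in each group, as in all such lists here). The groups overlapped, since 3D replicate 1 lay below suspension replicates 2 and 3. Its difference was 0.48 ± 0.30 (SE), and it was 0.13 without suspension replicate 1. PLK4 was higher in each pair, by 0.72, 0.29 and 0.43, and its difference was 0.36 without pair 1. STIL, which PLK4 phosphorylates, measured 7.75, 8.44 and 8.37 in suspension and 8.30, 8.85 and 9.02 in 3D. Here too 3D replicate 1 lay within the suspension range, and the difference of 0.54 ± 0.24 (SE) was 0.32 without suspension replicate 1. SASS6, the protein of the cartwheel's spokes, measured 7.17, 7.40 and 7.53 in suspension and 7.66, 7.93 and 8.14 in 3D. Every 3D value exceeded every suspension value, with a difference of 0.54 ± 0.18 (SE; limma adjusted p 0.405, and 0.109 with the block).

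CEP152 and CEP192, which bring PLK4 to the old centriole, did not overlap between the groups. CEP152 measured 7.13, 7.76 and 7.46 in suspension and 7.88, 7.99 and 8.01 in 3D, a difference of 0.51 ± 0.18 (SE). CEP192 measured 7.22, 7.22 and 7.23 in suspension and 7.86, 7.60 and 7.76 in 3D. Its 3 suspension values were almost the same, and the difference was 0.52 ± 0.15 (SE; adjusted p 0.380). CEP63 and CEP57, partners of CEP152, had differences of 0.46 ± 0.26 and 0.46 ± 0.29 (SE), and 0.21 and 0.14 without suspension replicate 1. CEP78 had 0.48 ± 0.29 (SE) with all arrays and 0.16 without that one. CEP85, which binds STIL, was the gene of this group with a lower mean in 3D (-0.14 ± 0.17, SE).

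CENPJ, which binds tubulin and sets the length of the new centriole, measured 5.96, 5.90 and 6.08 in suspension and 6.97, 6.40 and 7.17 in 3D. All 3D values were higher, 3D replicate 2 least so, and the difference of 0.87 ± 0.21 (SE), or 1.82-fold, was 0.86 without suspension replicate 1. Adjusted p was 0.353 in limma and 0.0660 with the block. CEP120 and SPICE1, which act with CENPJ in elongation, had differences of 0.30 ± 0.18 and 0.51 ± 0.23 (SE). Without suspension replicate 2 CEP120 had 0.15, and without suspension replicate 3 SPICE1 had 0.27. CEP135, which joins the cartwheel to the barrel's microtubules, measured 7.39, 7.69 and 8.10 in suspension and 8.22, 8.33 and 8.59 in 3D, a difference of 0.66 ± 0.20 (SE) with no overlap. CEP97, which caps the growing end, had 0.11 ± 0.17 (SE), or 0.013 without 3D replicate 1 and 0.20 without suspension replicate 1, and CEP76, which limits renewed duplication, had 0.26 ± 0.17 (SE).

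CEP295 and CEP44, known for turning a new centriole into one that can gather its own material, both lay apart between the groups. CEP295 measured 6.24, 6.50 and 6.28 in suspension and 7.08, 7.07 and 6.94 in 3D, and its difference of 0.69 ± 0.16 (SE), or 1.61-fold, was the second smallest in p of the 52 (adjusted p 0.347, and 0.0802 with the block). CEP44 measured 5.85, 6.38 and 6.63 in suspension and 6.89, 6.85 and 7.34 in 3D, a difference of 0.74 ± 0.22 (SE). CCDC14, a satellite protein that acts on duplication, measured 9.08, 9.17 and 9.36 in suspension and 9.82, 9.89 and 9.87 in 3D. Its 3D mean was 9.86 ± 0.03 (SD, n = 3), with every 3D value above every suspension value, and the difference was 0.66 ± 0.15 (SE), or 1.58-fold. CCDC15, a protein of the scaffold inside the barrel, measured 5.09, 5.91 and 6.013 in suspension and 5.998, 6.66 and 7.12 in 3D. Each 3D value was above its same-numbered suspension value, but 3D replicate 1 lay just below suspension replicate 3, and the difference of 0.92 ± 0.30 (SE) was 0.63 without suspension replicate 1.

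**Figure D2:**
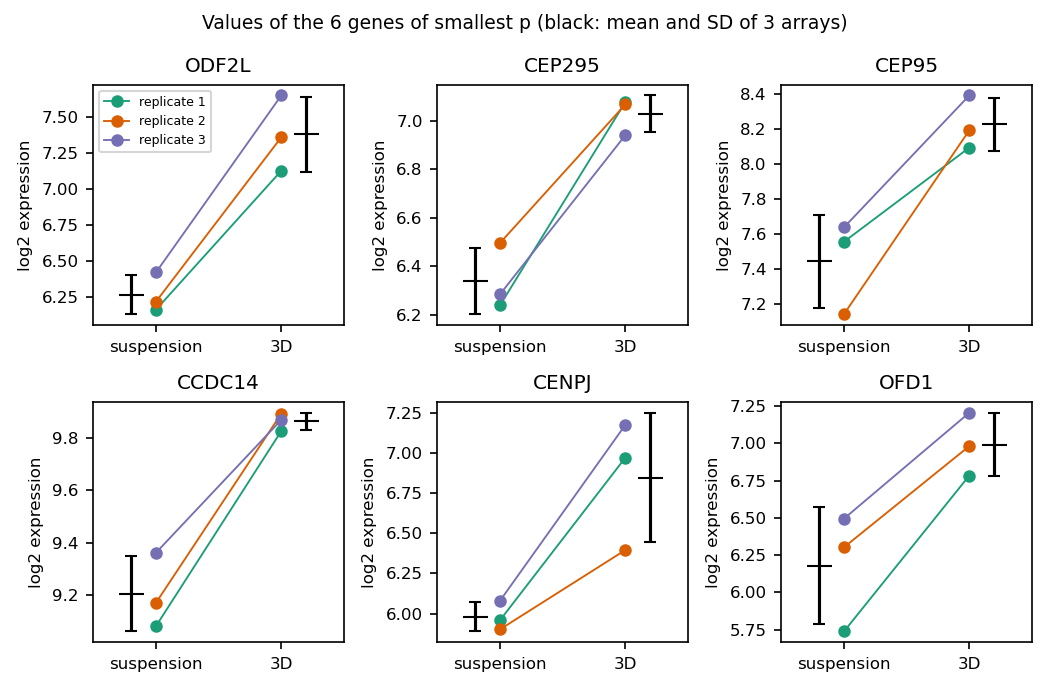
Log2 expression of the 6 genes of smallest p, 1 panel each, with points for single arrays, lines joining arrays of the same replicate number, and black bars for the mean and SD of 3 arrays. In each panel the 3 values in 3D lie above the 3 in suspension, with means of 6.27 and 7.38 for ODF2L and of 9.20 and 9.86 for CCDC14. Axes do not start at 0 and differ between panels.

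Promoters of these genes were examined because many genes of cell division carry a pair of short elements near their start, the CHR and the E2F site, through which the DREAM complex and E2F factors act. The RefSeq table (GRCh38.p14) held a promoter for 46 of the 52 genes. The window was 250 bases before to 30 after the start, taken at the start lying furthest upstream, which may not be the one used in Jurkat cells; 13 of the 46 had several. Exact matches were counted on both strands. TTTGAA, the CHR (TTCAAA on the other strand), was found in 13 of the 46 (28.3%) and in 11.7% of the windows of 14250 measured genes. TTCCCGC, a form of the E2F site that reads GCGGGAA on the other strand, was found in 12 of the 46 (26.1%) and in 8.35% of all. Both were present in 4 of the 46 (8.7%) and in 0.639% of all, namely in CEP152, CEP192, CEP295 and CEP55. CCAAT, or ATTGG, was found in 45.7% of the 46 and in 35.9% of all, the AP-1 site TGANTCA in 2.17% and 5.52%, the NRF1 site (GCGC, any 2 bases, GCGC) in 19.6% and 11.9%, and CCGGAAGT (ETS) in 8.7% and 6.08%. These shares were not tested, and a match is not a shown site of binding.

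The 4 windows that hold both elements are printed with that of ODF2L, the gene of largest difference, which holds neither. They run 5′ to 3′ in the gene's own direction; capitals mark matches to the CHR, the E2F site and the CCAAT box on either strand. The positions are chr15:48811040-48811319 (minus strand) for CEP152, chr18:12991112-12991391 (plus strand) for CEP192, chr11:93661432-93661711 (plus strand) for CEP295, chr10:93496362-93496641 (plus strand) for CEP55 and chr1:86396294-86396573 (minus strand) for ODF2L.
CEP152: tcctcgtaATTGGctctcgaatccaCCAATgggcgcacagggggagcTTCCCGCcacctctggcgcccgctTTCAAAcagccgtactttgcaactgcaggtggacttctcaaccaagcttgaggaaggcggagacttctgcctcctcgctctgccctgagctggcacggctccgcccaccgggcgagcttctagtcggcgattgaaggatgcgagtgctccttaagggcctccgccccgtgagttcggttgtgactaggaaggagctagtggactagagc
CEP192: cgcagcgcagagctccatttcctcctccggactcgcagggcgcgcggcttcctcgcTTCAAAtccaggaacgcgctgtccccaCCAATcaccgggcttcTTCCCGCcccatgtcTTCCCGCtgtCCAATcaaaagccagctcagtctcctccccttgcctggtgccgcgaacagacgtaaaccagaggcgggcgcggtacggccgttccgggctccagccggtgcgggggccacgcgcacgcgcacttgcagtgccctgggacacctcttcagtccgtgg
CEP295: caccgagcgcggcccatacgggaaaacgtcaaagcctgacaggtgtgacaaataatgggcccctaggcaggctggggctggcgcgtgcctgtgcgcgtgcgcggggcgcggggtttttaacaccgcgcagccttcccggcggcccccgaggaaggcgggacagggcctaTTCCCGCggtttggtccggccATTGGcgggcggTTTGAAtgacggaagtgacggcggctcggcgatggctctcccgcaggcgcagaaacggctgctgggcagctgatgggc
CEP55: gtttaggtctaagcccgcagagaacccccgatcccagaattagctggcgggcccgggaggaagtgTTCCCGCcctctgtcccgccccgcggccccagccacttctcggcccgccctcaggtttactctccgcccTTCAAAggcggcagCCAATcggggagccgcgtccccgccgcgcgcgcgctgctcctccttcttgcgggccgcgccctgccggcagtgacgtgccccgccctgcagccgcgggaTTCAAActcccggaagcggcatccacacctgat
ODF2L: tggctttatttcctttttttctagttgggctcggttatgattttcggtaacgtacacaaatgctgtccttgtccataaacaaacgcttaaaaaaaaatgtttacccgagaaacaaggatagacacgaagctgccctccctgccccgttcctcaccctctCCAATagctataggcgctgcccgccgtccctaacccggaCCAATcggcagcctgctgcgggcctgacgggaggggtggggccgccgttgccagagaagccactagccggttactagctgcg

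Matches were not limited to the genes with the larger differences. Of the 17 genes with a window and an unadjusted p under 0.05, 6 held TTTGAA and 5 held TTCCCGC; of the other 29, 7 and 7 did. Both elements were held by 3 of the 17 and 1 of the 29, the ETS site also by 3 and 1, the CCAAT box by 7 and 14, the NRF1 site by 2 and 7, and the AP-1 site by 0 and 1. None of these splits was tested. CEP152, CEP192 and CEP295 had no overlap between groups, while the groups overlapped for CEP55, a protein of the midbody that cuts daughter cells apart. The difference of CEP55 was 0.37 ± 0.36 (SE), and 0.05 without suspension replicate 1. CEP55 was higher in each pair, by 0.27, 0.42 and 0.41, and its difference was 0.42 without pair 1. ODF2L held 2 CCAAT matches. The median GC content of the windows was 63.8% for the 46 and 62.5% for all measured genes.

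Among the genes grouped here under appendages and the distal end, ODF2L had the largest difference, while CEP164 and CEP89 had differences near 0. Of 14 genes in this group, 12 were higher in 3D and 2 lower, with a median log2 difference of 0.23, or 0.20 without suspension replicate 1, and 4 at an unadjusted p under 0.05 (5.9% of all genes). ODF2L, also known as BCAP, was placed here with its relative, the appendage protein ODF2, and medians of role groups depend on such placements. It measured 6.16, 6.22 and 6.42 in suspension and 7.13, 7.36 and 7.65 in 3D. The lowest 3D value was well above the highest suspension value, and the difference was 1.11 ± 0.18 (SE), or 2.16-fold. It had the smallest p of the 52 (limma adjusted p 0.293), and leaving out any 1 array or pair, or changing the normalization, gave differences from 0.98 to 1.24. ODF2 itself, the scaffold of subdistal appendages, had 0.20 ± 0.18 (SE), and 0.045 without 3D replicate 2.

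CEP43, or FOP, which sits at the distal end, measured 7.15, 7.19 and 7.22 in suspension and 7.77, 7.84 and 7.53 in 3D. The groups were apart and the difference was 0.53 ± 0.16 (SE; adjusted p 0.392). CEP350, which recruits CEP43, had 0.63 ± 0.40 (SE), but 0.08 without suspension replicate 1. CNTRL, or centriolin, also had a smaller difference without that array. Its difference was 1.09 ± 0.47 (SE), with a suspension mean of 4.81 ± 1.28 (SD, n = 3) that held 1 value of 3.35, and it was 0.36 without that array. CEP128, a subdistal appendage protein, had 0.64 ± 0.26 (SE) and 0.36 without it. NIN, which anchors microtubule minus ends, had 0.22 ± 0.18 (SE), its relative NINL 0.10 ± 0.20, CEP170 0.29 ± 0.16, CEP162 0.24 ± 0.16 and CEP19 0.13 ± 0.24. Without suspension replicate 1 NIN had 0.10, NINL 0.29 and CEP19 0.041, and NINL and CEP19 changed sign without other arrays. CEP164 and CEP89, distal appendage proteins needed for docking, had -0.07 ± 0.19 and 0.02 ± 0.15 (SE). The sign of CEP164 changed when some arrays were left out, and that of CEP89 also after quantile normalization. CEP170B, at a mean of 4.95, was lower in each pair (-0.29 ± 0.17).

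Among satellite genes the scaffold and the ciliopathy proteins were higher in 3D and the others had smaller differences. Of 6 genes 5 were higher, with a median log2 difference of 0.36, or 0.19 without suspension replicate 1. PCM1, the scaffold, measured 8.79, 9.47 and 9.47 in suspension and 9.62, 9.72 and 9.85 in 3D. All 3D values lay above the suspension values, and the difference of 0.49 ± 0.20 (SE) was 0.26 without suspension replicate 1. OFD1, which restrains centriole length and is mutated in oral-facial-digital syndrome, measured 5.74, 6.30 and 6.49 in suspension and 6.78, 6.98 and 7.21 in 3D. The groups did not overlap, and the difference was 0.81 ± 0.21 (SE), or 1.76-fold, with 0.59 without suspension replicate 1 and an adjusted p of 0.377 in limma and 0.0660 with the block. CEP290, a protein of satellites and of the base of the cilium, measured 5.85, 6.80 and 6.65 in suspension and 6.83, 6.82 and 7.19 in 3D. Its lowest 3D value exceeded the highest suspension value by a small margin, and the difference was 0.51 ± 0.24 (SE) with all arrays and 0.22 without suspension replicate 1. CEP72 had 0.22 ± 0.18 (SE), CEP20 0.21 ± 0.19 and CEP131 -0.05 ± 0.17. CEP72 had 0.072 without suspension replicate 1, and CEP20 had 0.067 without 3D replicate 2.

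Genes of the pericentriolar material and of the linker between centrioles had differences of at most 0.38 with all arrays, none at an unadjusted p under 0.05. Of 6 genes 5 were higher in 3D, with a median of 0.30, and of 0.08 without suspension replicate 1. PCNT, or pericentrin, measured 7.61, 7.72 and 7.88 in suspension and 7.96, 8.06 and 7.98 in 3D. The 3D values were above the suspension values by little, for a difference of 0.26 ± 0.15 (SE; adjusted p 0.587). CDK5RAP2, which activates gamma-tubulin rings, measured 5.53, 6.62 and 6.52 in suspension and 6.58, 6.53 and 6.72 in 3D. The 3D values lay around suspension replicates 2 and 3, and the difference of 0.38 ± 0.26 (SE) was 0.04 without suspension replicate 1. AKAP9, a large anchor of kinases and gamma-tubulin at centrosome and Golgi, had 0.33 ± 0.25 (SE) and 0.02 without that array, and CEP70 had 0.34 ± 0.21 and 0.12. The linker genes CEP68 and CEP250 had 0.25 ± 0.31 and -0.02 ± 0.15 (SE). CEP68 was highest in suspension replicate 1, and its difference was 0.65 without that array, 0.031 without suspension replicate 2 and 0.062 without 3D replicate 1.

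Among the remaining 7 CEP genes, with a median of 0.37 and of 0.17 without suspension replicate 1, CEP95 had the largest difference. It measured 7.55, 7.14 and 7.64 in suspension and 8.10, 8.19 and 8.39 in 3D. The groups were apart, and the difference of 0.78 ± 0.18 (SE), or 1.72-fold, had an adjusted p of 0.347 in limma and 0.0715 with the block. CEP85L had 0.56 ± 0.21 (SE) and was higher in 2 of 3 pairs. CEP126, CEP112 and CEP15 had means of 3.53, 2.78 and 2.32, near the lowest values on the arrays (1.97), and their differences were 0.42 ± 0.20, 0.02 ± 0.18 and -0.08 ± 0.16 (SE); whether such values reflect transcripts was not tested. CEP126 had 0.25 without 3D replicate 3. CEP41, at a mean of 4.75, had 0.25 ± 0.16 (SE). CEP57L1, just outside the rule, had a difference of 0.17 ± 0.20 (SE).

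**Figure D3:**
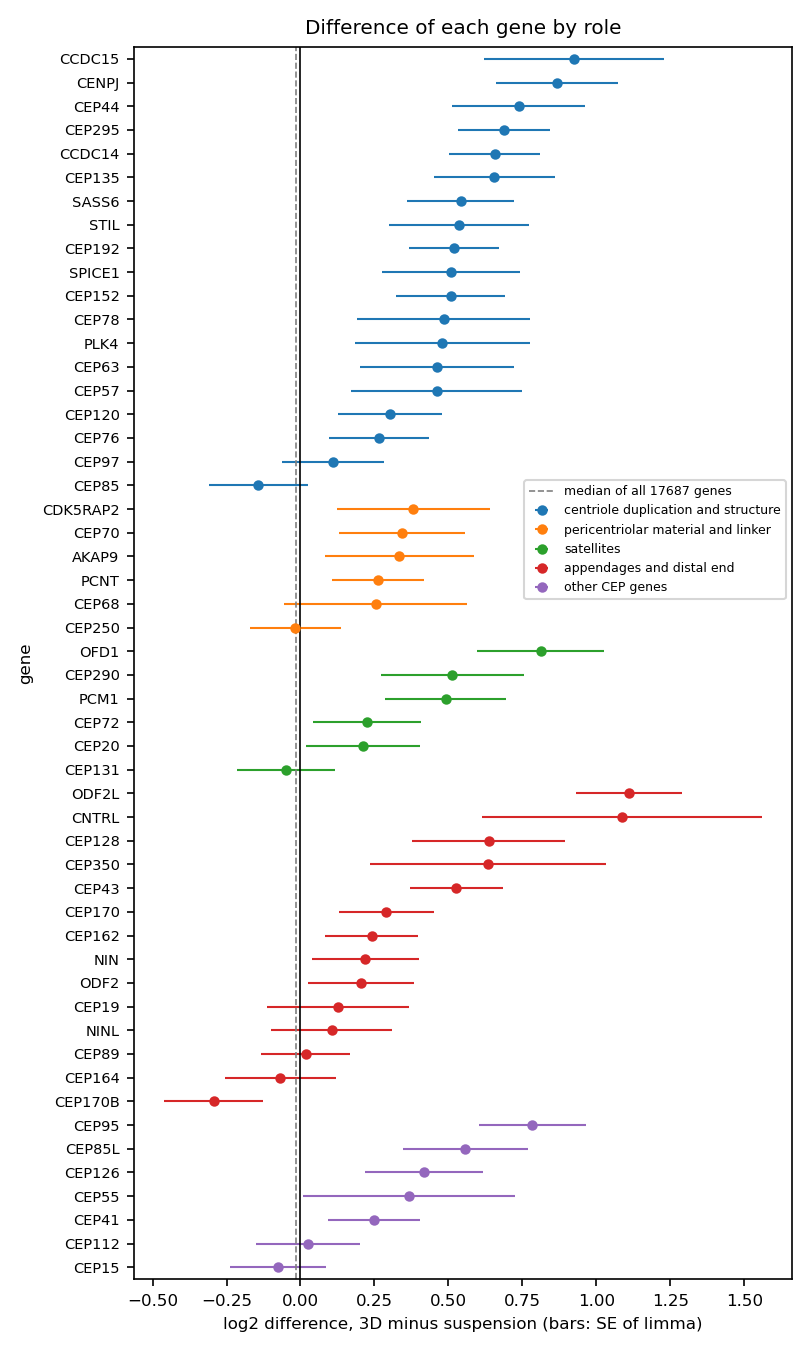
Log2 difference of each of the 52 genes, 3D minus suspension, with the standard error of limma as bars, coloured by role; the dashed line is the median of all 17687 genes (-0.02). Of the 52 points 46 lie right of 0, and the points of duplication and structure (median 0.51) lie further right than those of appendages (0.23) or pericentriolar material (0.30).

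The size of the difference fell without suspension replicate 1, and the median of mitosis genes was lowest in the replicate 1 arrays of both groups. Over the 52 genes the median level of the arrays was 6.75, 6.93 and 7.15 for suspension, against 7.25, 7.22 and 7.40 for 3D. The lowest 3D median was above the highest of suspension, by less than the range within suspension. Without suspension replicate 1 the median difference was 0.21, with 46 genes higher and 13 at an unadjusted p under 0.05 (5.55% of all genes). Without 3D replicate 3 it was 0.30, with 12 at an unadjusted p under 0.05 (3.86% of all genes). Dropping suspension replicate 1 alone keeps 3D replicate 1, with which it correlated at 0.521 after group means were subtracted. With both left out, in the blocked fit, the median difference was 0.31. In that fit STIL had 0.53, CEP63 0.44 and CEP78 0.41, while CEP70 had 0.18, CDK5RAP2 0.05 and AKAP9 -0.09. Leaving out suspension replicate 1, 19 of the 46 higher genes lost over 1.5 times in size, and 27 did so when some array was left out. The 27 include genes with differences near 0, such as CEP89 (0.017) and CEP112 (0.025). No share of all genes is given for these counts. Per pair the median was 0.55, 0.28 and 0.37, beside -0.04, 0.05 and -0.03 for all genes. The 25 measured genes of G2 and mitosis had medians of 8.02, 9.07 and 9.30 in suspension and of 8.41, 9.39 and 9.53 in 3D. Their median difference was 0.35, with 22 higher and 3 lower and 0 at an unadjusted p under 0.05. In the blocked fit of genes with a mean of at least 6, 9 passed as higher (10.6% of all such genes). The median difference of these 25 genes without suspension replicate 1 was not computed. Their median in 3D replicate 1 (8.41) lay below those of suspension replicates 2 and 3. The 25 genes of S phase had a median difference of 0.09, with 14 higher and 11 lower. The part of the cells' position in the cycle in the result was not tested.

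Other centrosome genes, taken from 5 lists that hold none of the 52, had a smaller median difference. Of 92 genes listed 83 were measured, with 54 higher and 29 lower, a median log2 difference of 0.12, and 10 higher and 1 lower at an unadjusted p under 0.05, where 5.9% and 3.97% of all genes were. None passed over all genes with or without the block, and 12 of 57 passed as higher in the blocked fit of genes with a mean of at least 6, where 10.6% of all such genes did. The 13 satellite genes came nearest, with a median of 0.41, 10 higher, and 6 at an unadjusted p under 0.05. CCDC18 had 1.08 ± 0.30 (SE), TEX9 0.49 ± 0.16 and KIAA0753, a partner of CCDC14 and OFD1, 0.61 ± 0.20. Suspension replicate 1 was low for CCDC18, at 4.43 beside 5.59 and 5.73 in replicates 2 and 3. For KIAA0753 it was 5.21 beside 5.86 and 5.86. Both genes had means under 6 (5.79 and 5.95). The 14 genes of appendages and the distal end had a median of 0.20, with KIAA0586 at 0.61 ± 0.16 (SE) and MPHOSPH9 at 0.56 ± 0.19. The 22 genes of centriole assembly had 0.12, with 15 higher, and POC5, a protein inside the barrel, had 0.52 ± 0.17 (SE). The linker and kinase list had 0.09 over 20 genes. The 14 genes of gamma-tubulin rings and augmin, which start and branch microtubules, had a median of -0.03, with 6 higher and 8 lower, TUBGCP2 at -0.47 ± 0.16 (SE) and NEDD1, which tethers the rings, at 0.53 ± 0.25. The difference between these lists and the 52 genes was not tested.

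**Figure D4:**
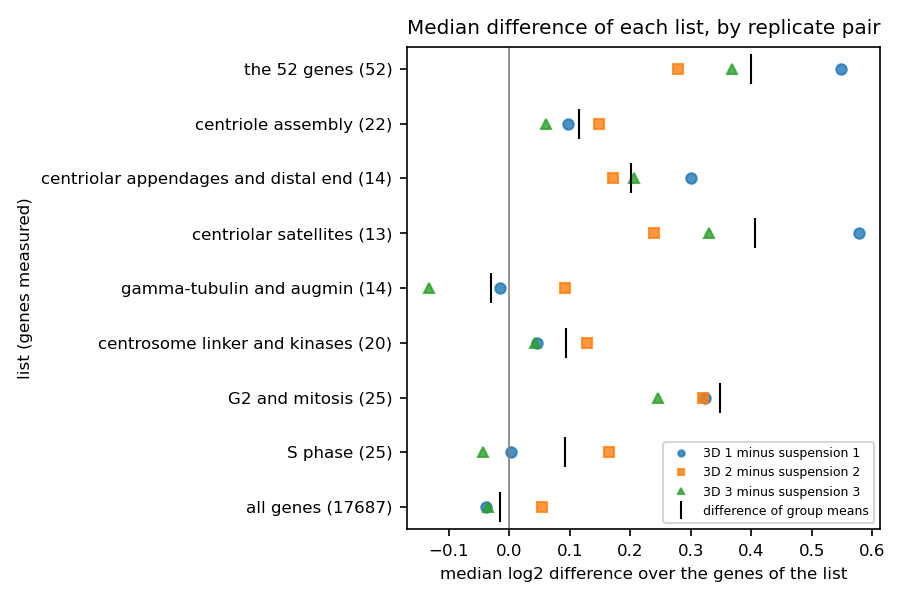
Median log2 difference of each list for replicate pairs 1, 2 and 3 (circle, square, triangle) and for the group means (black bar); the number of genes measured is in brackets. The 52 genes have 0.55, 0.28 and 0.37 in the pairs, all above the values of all genes, while gamma-tubulin and augmin genes lie around 0.

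These genes are long, and on these arrays longer genes had higher differences. Their median span in RefSeq was 70.6 kb, against 25.9 kb for all genes, and they had a median of 23 neighbours within 500 kb, against 30. Split by span into 5 bins of about 3537 genes, all genes had a median difference of -0.09 in the shortest bin and of 0.06 in the longest. In the bin from 37.3 to 86.8 kb, 23 of the 52 genes had a median of 0.51 where all genes had 0.05, and in the longest, 20 had 0.36 where all genes had 0.06. The share of all genes higher at an unadjusted p under 0.05 was 9.3% and 11.1% in these bins. It was 1.44% in the shortest bin. After a linear trend on the logarithm of span and neighbour count was taken out of every array, the median difference of the 52 was 0.34 and that of all genes -0.01. Of the 52, 44 were higher and 14 had an unadjusted p under 0.05. The shares of all genes for these 2 counts were not computed. With the trend removed, the blocked fit of genes with a mean of at least 6 called 22 of 44 higher, where 8.72% of all such genes were. Across the 52 genes, which share the same 6 arrays, Spearman's rho of the difference was 0.18 with span, -0.23 with neighbours and 0.20 with mean level. The genes lay on 22 chromosomes, with most on chromosome 3 (7) and chromosome 1 (6).

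**Figure D5:**
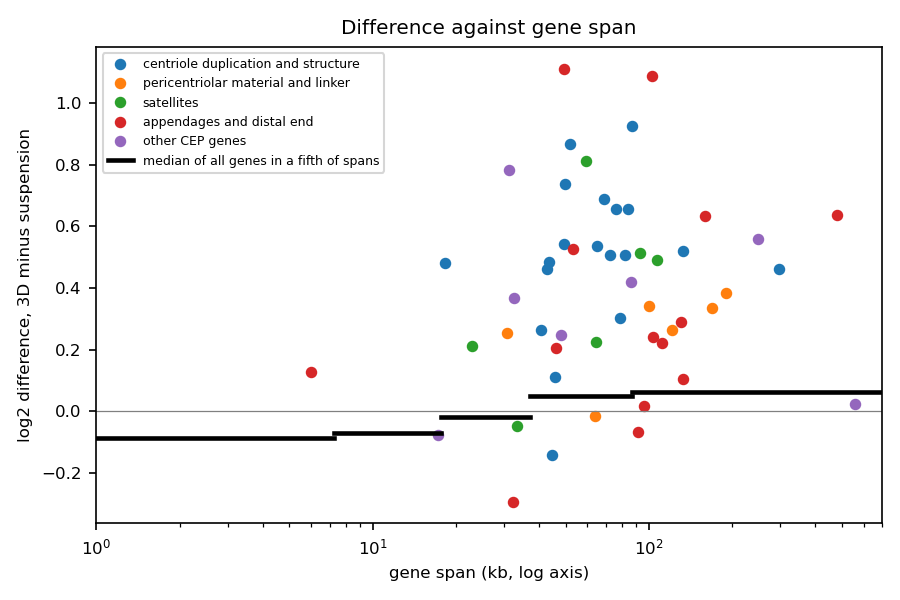
Log2 difference of each of the 52 genes against gene span in kb on a log axis, coloured by role; black lines give the median of all genes in each of the 5 bins of span. The lines climb from -0.09 to 0.06, and 46 of the 52 points lie above 0, most of them well above the line for their span.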

How the data were processed

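The 6 arrays, 3 of Jurkat cells in suspension and 3 in collagen, were labelled with a whole-transcript GeneChip kit, per the labels' protocols. Deposited values, 1 for each probe set, are on the log2 scale and were made with RMA and the Transcriptome Analysis Console, per the submitters' processing notes, whose versions and genome build are not given in the sources used here. Its quantile step gives all arrays a common distribution, which would mask a change in total RNA, and its fit shrinks differences of dim probe sets. There were 0 further columns of per-sample values.

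Of 21448 probe sets, 17709 carried 1 gene symbol, 0 several and 3739 none; the set of highest mean was kept, leaving 17687 genes, all matched to RefSeq (GRCh38.p14) by identifier. Groups and replicate numbers came from the titles. The test was limma 3.58.1 (R 4.3.3), two-sided, on all genes, without a block or filter, adjusted p 0.05. Same-numbered arrays correlated at 0.521, 0.12 and 0.337 after subtracting group means, so the numbers were taken as pairs; suspension 2 with 3D 3 (0.23) and suspension 3 with 3D 2 (0.149) also passed 0.1, so the pairing is weak. All 52 genes could be named; values of every array are given for the 12 of smallest p, 5 duplication genes, PCNT, PCM1, CDK5RAP2 and CEP290, and from each other list up to 3 genes of smallest p could be named with difference and error. Members, lists and motifs were chosen with earlier results of these data known. The fit was tested on simulated data, and no outcome of that test is given here. Alternatives covered pairing, filter, normalization, span, probe sets, spread and left-out arrays. Plots used matplotlib 3.10.9 under Python 3.11.15.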

Additional observations from a re-analysis of the deposited data

How the results depend on the processing

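Under 23 alternatives, 18 planned and 5 chosen after seeing the data, the median log2 difference of the 52 genes stayed above 0. It moved beyond the spread of array medians once, to 0.21 without suspension replicate 1, and ran from 0.21 to 0.51 over the arrays left out singly. The number of the 52 past an adjusted p of 0.05 was 0 in every fit without the block. With the replicate block it was 1 of 16 genes called; without pair 1, 2 or 3 it was 1 of 21, 7 of 150 and 1 of 36. With the block and the trend on span and neighbours removed it was 2 of 22, ODF2L and CCDC15. With the block on genes of mean 6 or more it was 23 of 1199, and without pair 1, 2 or 3 then 11 of 458, 27 of 1457 and 14 of 406, after quantile normalization 22 of 1216 and with the trend removed 22 of 949. Fewer genes tested and more prior degrees of freedom (25.0 against 9.78) go with these counts.

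The sign held under all alternatives for 43 genes, 41 higher and 2 lower. It turned for 9 genes, 8 of them with a difference within 0.13 of 0, and AKAP9 (0.33). In both blocked fits, AKAP9 was -0.089 and CEP89 -0.033 without pair 1, CEP19 was -0.074 without pair 2, and CEP131 was 0.12, CEP164 0.035 and CEP250 0.039 without pair 3; CEP112 was -0.092 there without the filter. CEP89 was -0.0039 after quantile normalization and -0.028 with the trend removed, where CEP112 was -0.12, and CEP250 was 0.0016 after median centring. With 1 array left out at a time, CEP112 ran from -0.069 to 0.16, CEP131 from -0.11 to 0.066, CEP15 from -0.14 to 0.027, CEP164 from -0.16 to 0.082, CEP19 from -0.019 to 0.38, CEP250 from -0.072 to 0.032, CEP89 from -0.015 to 0.053 and NINL from -0.03 to 0.29. The cause was not tested. Detection flags were not used here, so levels near the floor cannot be told from none.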
